A study of Mus musculus with 6 samples.

Results

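The genes described here are 9 members of the mouse Ifi200 family: Ifi202b, Ifi203, Ifi204, Ifi207, Ifi209, Ifi211, Ifi213, Mndal and Aim2. They were chosen by name from 40564 genes in the count tables, as relatives in 1 gene cluster that encode candidate DNA sensors, with measured values of these libraries already known. All 9 lie on chromosome 1 of mm10, between base 173350879 and base 173982744, an interval of 632 kb. RNA was sequenced from cells obtained by bronchoalveolar lavage of mouse lung (BALF), which are labelled as immune cells and were left untreated. The 3 genotypes were wild type (WT), Cis KO and Cis Stat6 KO, the last of which is labelled as a double knockout, with 2 libraries each and 6 in all. Cis is the protein of Cish, a member of the suppressor of cytokine signalling family that restrains cytokine receptors, and Stat6 is the transcription factor that acts downstream of IL-4 and IL-13. The sources used here do not give strain, age, allele design, the cells in which the genes were deleted or the number of animals behind a library. The tests below therefore measure the spread between these libraries, which may be technical.

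Proteins of this family, also called PYHIN or HIN-200 proteins, usually join an amino-terminal pyrin domain, which binds other pyrin domains, to a carboxy-terminal HIN domain, which binds DNA. Aim2 binds double-stranded DNA in the cytosol and gathers the adaptor ASC (Pycard) and caspase-1 (Casp1) into an inflammasome that releases IL-1beta and IL-18. Ifi202b encodes p202, which has HIN domains and no pyrin domain and is known to restrain Aim2. Most of these genes are induced by interferon, and the RNA level of Ifi202b is known to differ between inbred mouse strains.

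The coding starts show how alike, and how unlike, these genes are over a short stretch. They do not show where reads could be assigned to the wrong gene, since the rest of each transcript is not covered. Sequence shared over whole transcripts is described further below. The first 60 coding bases, from the ATG, are given in GENCODE M21, with capitals for each base that differs from Ifi211 at the same position.
Ifi211: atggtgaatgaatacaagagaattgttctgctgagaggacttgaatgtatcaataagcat
Ifi204: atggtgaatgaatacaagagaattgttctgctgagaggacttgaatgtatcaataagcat
Ifi207: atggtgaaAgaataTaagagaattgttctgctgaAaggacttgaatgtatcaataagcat
Ifi209: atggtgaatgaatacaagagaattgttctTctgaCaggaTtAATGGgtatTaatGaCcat
Aim2: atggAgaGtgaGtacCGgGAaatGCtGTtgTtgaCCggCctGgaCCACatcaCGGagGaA
Ifi202b: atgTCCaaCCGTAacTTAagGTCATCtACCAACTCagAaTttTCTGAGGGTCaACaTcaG
Ifi204 had 0 differences from Ifi211 over this stretch, Ifi207 had 3 and Ifi209 had 11. Aim2 had 25 differences and Ifi202b had 41. The comparison allowed no gaps, so a shifted start also counts as differences: Ifi213 likewise had 41, and Mndal had 37.

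Promoters from RefSeq (GRCm38.p6, the assembly called mm10), 300 bases from 250 before to 50 after a transcription start, were available for 8 of the 9 genes (not for Ifi204). They were searched on both strands for GAAANNGAAA, the core of the interferon-stimulated response element, for TTCNNNGAA, which STAT dimers bind, and for TTCNNNNGAA, the wider spacing that STAT6 prefers. No matches to different motifs overlapped. GAAANNGAAA was found in 5 of the 8 genes and in 3.44% of the 32851 promoters in the table. The matches, with 10 flanking bases on each side and the motif in capitals, read as follows on the minus strand, from which all 5 genes are transcribed.
Ifi203, chr1:173942508-173942537: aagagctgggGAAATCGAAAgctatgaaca
Ifi207, chr1:173741831-173741860: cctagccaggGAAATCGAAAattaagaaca
Ifi211, chr1:173913064-173913093: caaagccaggGAAATTGAAAgctatgaacg
Ifi213, chr1:173599326-173599355: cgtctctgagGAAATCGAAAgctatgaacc
Mndal, chr1:173880204-173880233: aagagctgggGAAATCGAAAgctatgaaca
The match began 35 bases before the start in Ifi203, 41 in Ifi207, 37 in Ifi211, 73 in Ifi213 and 36 in Mndal. Mndal had another start in the table, and the promoter of that start held a different match, on the opposite strand and 54 bases before it. The windows of Ifi203 and Mndal are the same sequence.

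Ifi202b, Aim2 and Ifi209 held no GAAANNGAAA in these windows. TTCNNNNGAA was found in Ifi203, Ifi211 and Ifi213, against 6.95% of all promoters in the table. In Ifi203 it lay 130 bases before another start than the one shown above, in a promoter without GAAANNGAAA. A gene with several starts was counted if any of its promoters held the motif, whereas the shares are per promoter. TTCNNNGAA was found in 1 of the 8 genes, Ifi202b, 148 bases before its start, and in 8.30% of all promoters. The promoter of Ifi202b (chr1:173982795-173983094, minus strand) is given in full because this gene differed most between the genotypes, with the TTCNNNGAA match in capitals. Letters that match are a description and not a measured binding site. The sequences are those of the reference assembly, and the strain of these mice is not given, so their own promoters may differ.
Ifi202b promoter: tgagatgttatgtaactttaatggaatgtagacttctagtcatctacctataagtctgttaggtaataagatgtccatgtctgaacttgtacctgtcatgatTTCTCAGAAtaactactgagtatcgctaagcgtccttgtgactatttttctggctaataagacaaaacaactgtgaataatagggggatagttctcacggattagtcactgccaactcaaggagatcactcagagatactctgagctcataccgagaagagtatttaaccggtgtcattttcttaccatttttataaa

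Ifi202b (ENSMUSG00000026535, chr1:173962568-173982744, minus strand) was lower in Cis KO than in WT and higher in Cis Stat6 KO than in Cis KO. Its normalised read count, in CPM (counts relative to library size) after TMM scaling, was 22.5 and 19.4 in WT, 4.72 and 4.93 in Cis KO, and 32.7 and 26.7 in Cis Stat6 KO. Both Cis KO libraries lay below the other 4, and both Cis Stat6 KO libraries lay above both WT libraries. The deposited counts behind these values were 1303, 1329, 302, 216, 2263 and 1299 in the same order, so counting error was small beside the difference. The means were 21 ± 2.16 CPM in WT, 4.83 ± 0.15 in Cis KO and 29.7 ± 4.23 in Cis Stat6 KO (SD, n = 2 each).

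The level of Ifi202b was 4.34-fold lower in Cis KO than in WT, a log2 difference of -2.12 ± 0.23 (SE, derived from the edgeR F statistic). It was 6.15-fold higher in Cis Stat6 KO than in Cis KO, a log2 difference of 2.62 ± 0.24. Across single libraries, the ratio of WT to Cis KO ran from 3.94 to 4.77 and that of Cis Stat6 KO to Cis KO from 5.42 to 6.93. Between Cis Stat6 KO and WT the log2 difference was 0.50 ± 0.22, a ratio of 1.42. Leaving out each library in turn kept the log2 difference of Cis KO from WT between -2.22 and -2.02, and that of Cis Stat6 KO from Cis KO between 2.46 and 2.77.

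In edgeR's quasi-likelihood test with Benjamini-Hochberg adjustment over all genes, Ifi202b was the 1 member called (adjusted p under 0.05) of the 8 tested in Cis KO against WT, where 0.274% of 16765 genes were called. It was also the 1 member called in Cis Stat6 KO against Cis KO, beside 0.358% of all genes. No member was called in Cis Stat6 KO against WT, where 0.131% of all genes were; there, 0 of the 8 had an unadjusted p under 0.05 in edgeR, and DESeq2 and limma-voom also called 0. Since the genes were chosen with these values known, the counts describe the family and support nothing further. In Cis KO against WT, Ifi202b was no longer called without WT replicate 1, WT replicate 2, Cis Stat6 KO replicate 1 or Cis Stat6 KO replicate 2 (edgeR adjusted p = 0.276, 0.218, 0.124 and 0.106). In Cis Stat6 KO against Cis KO it was no longer called without Cis Stat6 KO replicate 1 or 2 (edgeR adjusted p = 0.115 and 0.144).

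**Figure D1:**
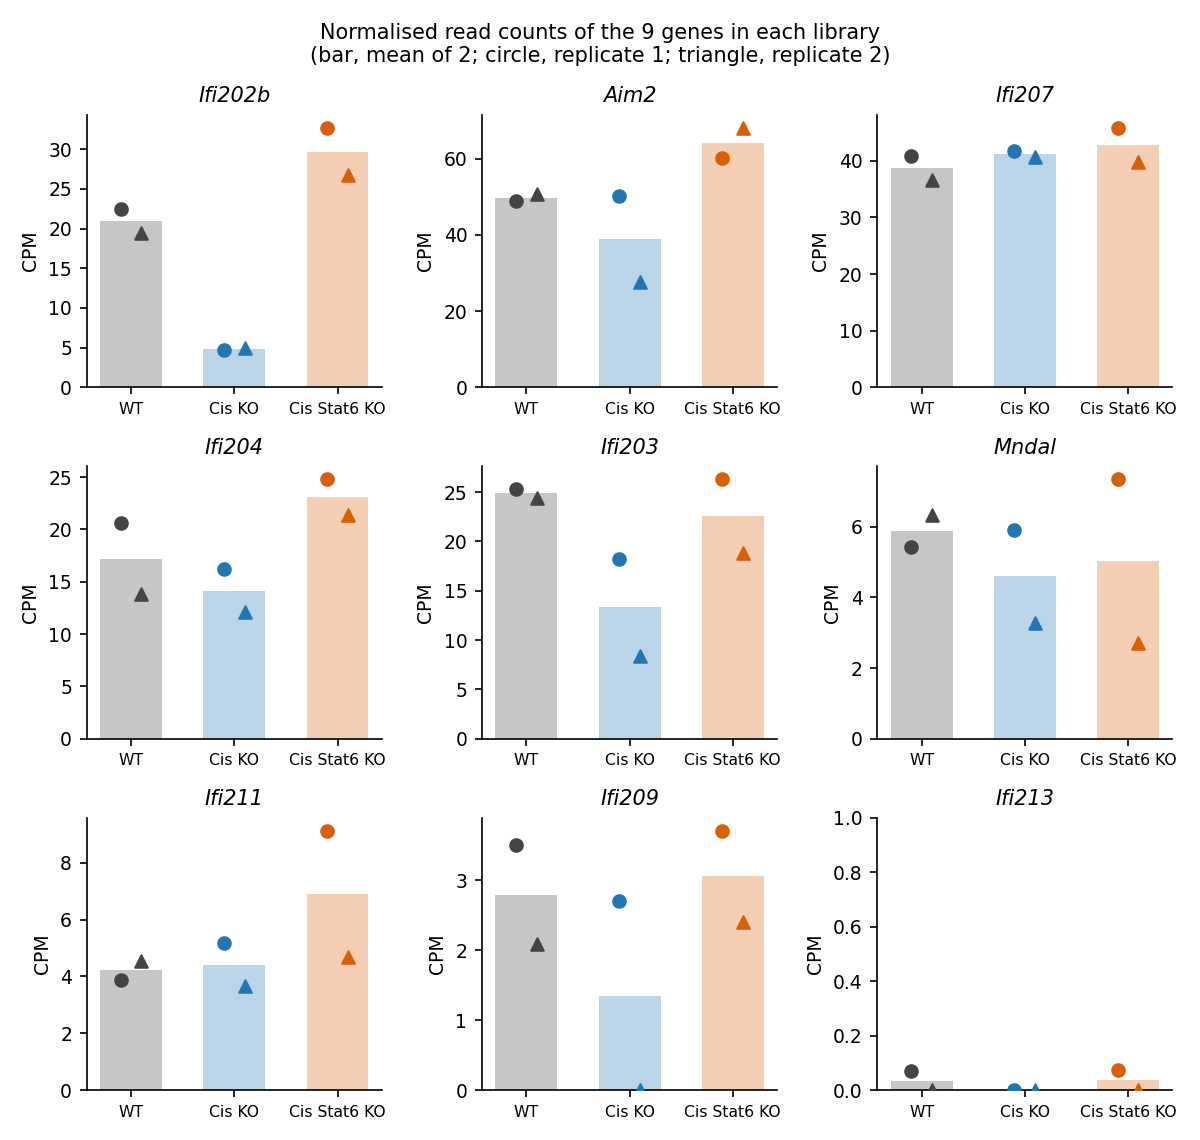
Normalised read count (CPM, linear axis from 0) of each of the 9 genes by genotype; the bar is the mean of 2 libraries, the circle replicate 1 and the triangle replicate 2. The Cis KO libraries of Ifi202b sit at 4.72 and 4.93 CPM, below the other 4 libraries, whereas Ifi207 lies between 36.6 and 45.8 CPM in all 6.

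Aim2 (ENSMUSG00000037860, chr1:173350879-173466040, plus strand), the sensor that p202 restrains, had 48.9 and 50.6 CPM in WT, 50.1 and 27.6 in Cis KO, and 60.2 and 68.1 in Cis Stat6 KO. Cis KO replicate 1 lay between the WT libraries and replicate 2 below them, so those groups overlapped, whereas both Cis Stat6 KO libraries lay above the other 4. The log2 difference was -0.36 ± 0.29 (SE) in Cis KO against WT, 0.72 ± 0.29 in Cis Stat6 KO against Cis KO and 0.37 ± 0.29 in Cis Stat6 KO against WT. Without Cis KO replicate 2 the first of these was 0.01 and the second 0.35. Without Cis KO replicate 1 they were -0.87 and 1.23, and both were then called.

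Ifi204 (ENSMUSG00000073489, chr1:173747293-173766943, minus strand) encodes p204, a relative of human IFI16 that has been linked to STING signalling. It had 20.6 and 13.8 CPM in WT, 16.2 and 12.1 in Cis KO, and 24.8 and 21.4 in Cis Stat6 KO. Cis Stat6 KO libraries were above all others, and WT and Cis KO overlapped. Log2 differences were -0.28 ± 0.29 in Cis KO against WT, 0.71 ± 0.29 in Cis Stat6 KO against Cis KO and 0.42 ± 0.29 in Cis Stat6 KO against WT. The second of these was 0.50 without Cis KO replicate 2, and 0.95 and called without replicate 1.

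Ifi203 (ENSMUSG00000039997, chr1:173920407-173942672, minus strand), the neighbour of Ifi202b in the cluster, had 25.3 and 24.4 CPM in WT, 18.2 and 8.4 in Cis KO, and 26.3 and 18.8 in Cis Stat6 KO. Both Cis KO libraries were below the other 4, but they differed from each other 2.16-fold. The log2 difference from WT was -0.90 ± 0.38 in Cis KO. It was -0.45 without Cis KO replicate 2, and -1.58 and called without Cis KO replicate 1. In Cis Stat6 KO against Cis KO it was 0.76 ± 0.38, with 0.30 without Cis KO replicate 2, and 1.43 and called without replicate 1.

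Ifi207 (ENSMUSG00000073490, chr1:173723427-173741747, minus strand), a pyrin and HIN domain member, varied least. It had 40.9 and 36.6 CPM in WT, 41.7 and 40.7 in Cis KO, and 45.8 and 39.8 in Cis Stat6 KO, and every pair of genotypes overlapped. Its log2 differences were 0.09 ± 0.19, 0.06 ± 0.19 and 0.15 ± 0.19 in the 3 comparisons, in the order used above. The first was -0.02 when counts were scaled by library size only.

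The other members were low. Mndal (ENSMUSG00000090272, chr1:173849126-173880187, minus strand), named after the human myeloid nuclear differentiation antigen, had 5.42 and 6.34 CPM in WT, 5.92 and 3.29 in Cis KO, and 7.35 and 2.71 in Cis Stat6 KO. Ifi211 (ENSMUSG00000026536, chr1:173896345-173913046, minus strand) had 3.88 and 4.56 CPM in WT, 5.16 and 3.65 in Cis KO, and 9.13 and 4.67 in Cis Stat6 KO. In Mndal every pair of genotypes overlapped, and in Ifi211 the Cis Stat6 KO libraries lay above those of WT while Cis KO overlapped both. Replicates of Cis Stat6 KO differed 2.71-fold in Mndal and 1.96-fold in Ifi211. The log2 differences of Mndal were -0.35 ± 0.56, 0.13 ± 0.56 and -0.22 ± 0.56 in the same order of comparisons. Those of Ifi211 were 0.06 ± 0.45, 0.65 ± 0.45 and 0.71 ± 0.45.

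Ifi209 (ENSMUSG00000043263, chr1:173630917-173647928, plus strand) had 3.50 and 2.09 CPM in WT, 2.70 and 0 in Cis KO, and 3.71 and 2.41 in Cis Stat6 KO. The 0 is Cis KO replicate 2, where no read was counted in a library of 50762354 counts. A count of 0 allows up to 3 counts, or 0.0591 CPM of the unscaled total, while Cis KO replicate 1 held 173 counts. These limits cover counting error only. Its log2 difference from WT was -1.04 ± 1.58 in Cis KO, and -0.04 without Cis KO replicate 2. Without Cis KO replicate 1 it was called, against a lone library at 0. Ifi213 (ENSMUSG00000073491, chr1:173566283-173599274, minus strand) had 4 counts in WT replicate 1, 5 in Cis Stat6 KO replicate 1 and 0 in the other 4 libraries, and was not tested because it failed the filter on low counts.

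Libraries of Cis KO lay below those of WT without overlap in 2 of the 8 genes tested (Ifi202b and Ifi203), beside 25.9% of all 16765 genes. In 4 genes (Aim2, Ifi204, Ifi203 and Ifi202b) Cis Stat6 KO lay above Cis KO without overlap, beside 27.9% of all genes. Another set of 4 (Aim2, Ifi204, Ifi211 and Ifi202b) was higher in Cis Stat6 KO than in WT, beside 23.3% of all genes. The median log2 difference of the 8 genes was -0.35 in Cis KO against WT and 0.72 in Cis Stat6 KO against Cis KO, beside -0.05 and 0.05 over all genes. In Cis Stat6 KO against WT it was 0.26, with all genes at 0. Without Cis KO replicate 2 these medians were -0.02 and 0.33. The 2 comparisons share the Cis KO libraries, and the 8 genes had passed a filter on low counts.

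**Figure D2:**
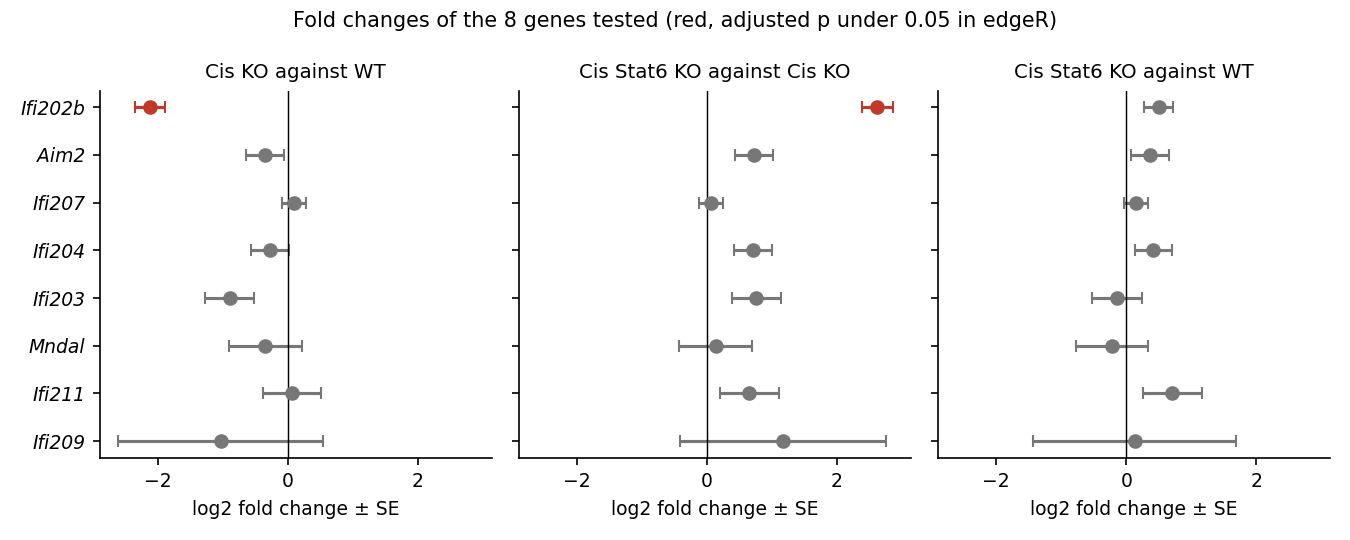
Log2 fold change with its standard error (derived from the edgeR F statistic) for the 8 genes tested, in 1 panel per comparison. Red marks an adjusted p under 0.05. Ifi202b is at -2.12 in Cis KO against WT and at 2.62 in Cis Stat6 KO against Cis KO, and the other 7 genes lie between -1.04 and 1.17 in these panels.

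Levels of different genes were compared per length, as FPKM (counts corrected for gene length and library total). In WT, Aim2 was highest at 13.4 ± 0.205 FPKM (SD, n = 2), followed by Ifi202b at 11.6 ± 1.30 and Ifi207 at 10.7 ± 0.933, and the values of Ifi202b and Ifi207 overlapped. Ifi204 (4.55 FPKM), Ifi203 (3.48), Ifi211 (2.21), Mndal (1.52) and Ifi209 (0.74) followed without overlap between neighbours. In Cis KO, Ifi202b stood at 2.49 ± 0.339 FPKM, behind Ifi207 (10.6 ± 1.94), Aim2 (10.1 ± 5.61) and Ifi204 (3.54), and each gene overlapped the next from Ifi204 down to Mndal. Cis Stat6 KO had Aim2 at 16.5 ± 0.325 FPKM and Ifi202b at 16 ± 3.94, whose values overlapped, and Ifi207 at 11.4. Per length, Ifi202b stood at 0.949 and 0.792 of the Aim2 level in the WT libraries, at 0.195 and 0.369 in Cis KO, and at 1.12 and 0.81 in Cis Stat6 KO.

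Shared sequence bears on which of these values could hold reads of a relative. Each transcript of GENCODE M21 was divided into all windows of 50 bases, and each window was looked for, on both strands, in the transcripts of all other genes. Of the 1648 windows of Ifi202b, 0 occurred in another gene, and 0.742% of those of Aim2 did. The share was 7.29% in Ifi207, 12.4% in Ifi203, 15.6% in Ifi213, 19.6% in Mndal and 20.0% in Ifi204. It reached 33.7% in Ifi209, nearly all with Ifi214, and 72.8% in Ifi211 (1260 of 1731 windows), mostly with Ifi205 and Ifi204. At 100 bases, Ifi202b and Aim2 shared 0% and Ifi211 shared 56.9%. The sources used here give neither read length nor the handling of reads with several matches, so the levels of Ifi211, Ifi209, Ifi204 and Mndal are uncertain. The deposited tables place the end of Mndal at base 173880187, whereas M21 extends it to 173942491, across Ifi211 and into Ifi203, and the other 8 genes have the same ends in both.

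**Figure D3:**
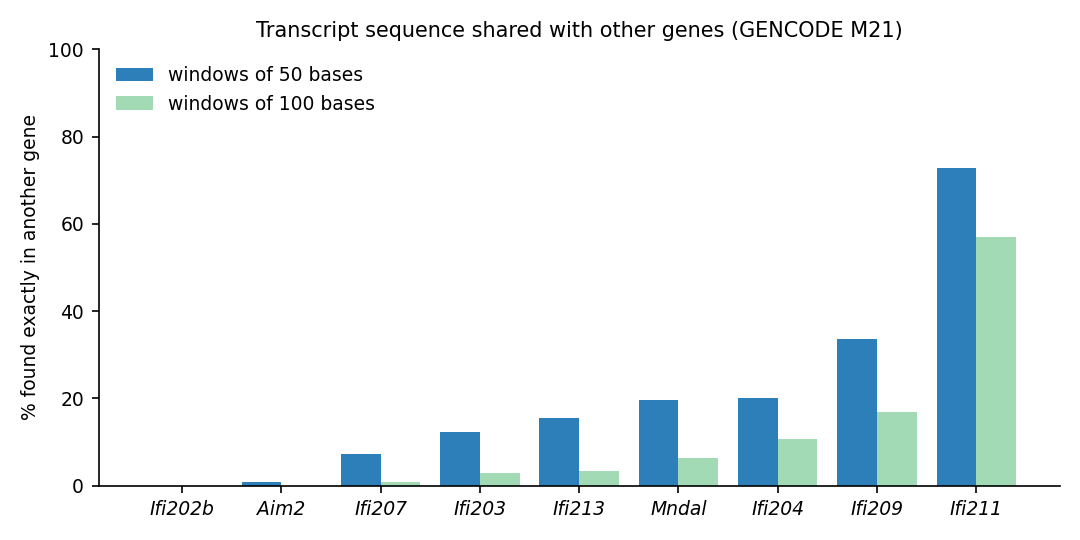
Percent of each gene's transcript windows of 50 or 100 bases (GENCODE M21) that occur exactly in a transcript of another gene. Ifi202b has no such window at either length, and Ifi211 has 72.8% at 50 bases and 56.9% at 100.

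A sum over the family does not change with how shared reads were divided between its members, provided that those reads were counted. The sources used here do not say whether they were, and discarded reads would lower the sum. Counts of the 9 genes and of 5 further family genes of the cluster in the tables (Ifi205, Ifi206, Ifi208, Ifi214 and Ifi203-ps) summed to 173 and 160 CPM in WT, 147 and 102 in Cis KO, and 215 and 186 in Cis Stat6 KO. Both Cis KO libraries were lowest and both Cis Stat6 KO libraries highest with TMM scaling. With library size only, Cis Stat6 KO replicate 2 (174) lay below WT replicate 1 (182), and both Cis KO libraries (158 and 87.7) were still lowest. Without Ifi202b the sums were 151 and 141 CPM in WT, 142 and 96.7 in Cis KO, and 182 and 160 in Cis Stat6 KO, so that Cis KO replicate 1 lay between the WT libraries. Ifi202b made up 13% and 12.1% of the family's counts in WT, 3.21% and 4.85% in Cis KO, and 15.2% and 14.3% in Cis Stat6 KO. That share is taken within each library and does not depend on scaling. For every 100 counts of Ifi207, Ifi202b had 55.0 and 53.1 in WT, 11.3 and 12.1 in Cis KO, and 71.3 and 67.1 in Cis Stat6 KO.

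**Figure D4:**
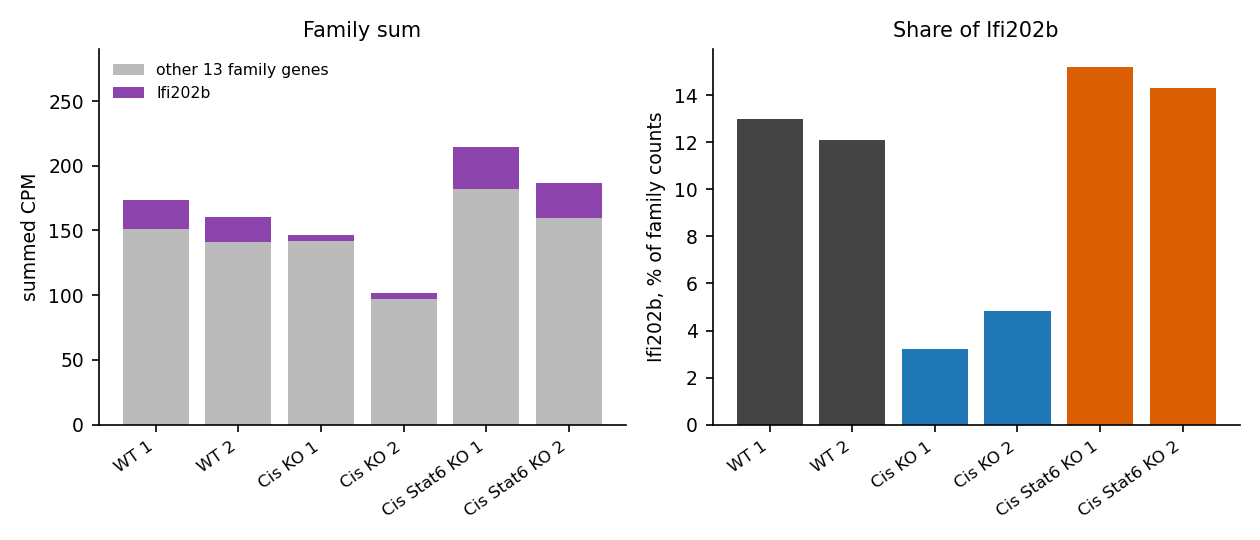
Left, summed CPM of 14 family genes in each library, divided into Ifi202b (purple) and the other 13 (grey); right, Ifi202b as a percent of the family's counts. The share is 3.21% and 4.85% in Cis KO and between 12.1% and 15.2% in the other 4 libraries.

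The 5 further family genes were scarce, with 0.966% to 2.18% of the family's counts. Ifi206 was not tested, and none of the others was called in any comparison, beside 0.274%, 0.358% and 0.131% of all genes. Ifi203-ps had 1.21 and 1.84 CPM in WT, 0.719 and 0 in Cis KO, and 2.18 and 0.699 in Cis Stat6 KO. Ifi205 had 0.362 and 0.351 CPM in WT, 0.875 and 0 in Cis KO, and 1.85 and 0.905 in Cis Stat6 KO. Cis KO replicate 2 had 0 counts in both, as in Ifi209.

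Genes around the cluster were examined because a stretch of chromosome from another strain would reach beyond 1 gene. Cish (chromosome 9) and Stat6 (chromosome 10) lie on other chromosomes than the family. Of the 5 nearest tested genes on each side, 190 to 1699 kb away, edgeR called 0 of 10 in each comparison, with 0 at an unadjusted p under 0.05, and DESeq2 and limma-voom also called 0. Fh1, the fumarate hydratase gene and the only 1 of the 10 above 10 CPM in every library, had 57.1 and 66.3 CPM in WT, 55.6 and 68.7 in Cis KO, and 60.4 and 58.9 in Cis Stat6 KO. Most of the others were low, and without Cis KO replicate 1 Kmo and Chml were called in both comparisons with Cis KO. The part of strain variation in the level of Ifi202b was not tested, since counts per gene carry no sequence variants.

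The genes that work with these sensors were followed in lists, which were also drawn up with earlier results of these data known. Over all 16765 genes, edgeR gave an unadjusted p under 0.05 to 11.1% in Cis KO against WT, 18.3% in Cis Stat6 KO against Cis KO and 5.36% in Cis Stat6 KO against WT. In the same order DESeq2 called 3.11%, 9.21% and 1.91% of all genes, and the counts of each list are to be read beside these shares. Of 18 inflammasome and pyroptosis genes, 0 were called in Cis KO against WT in edgeR, where 3 had an unadjusted p under 0.05; DESeq2 called 1 and limma-voom 0. Il1b, the gene of the cytokine that caspase-1 matures, was the 1 gene of the list called in Cis Stat6 KO against Cis KO by edgeR and by limma-voom, where 4 had an unadjusted p under 0.05 in edgeR. DESeq2 called 3 there (Casp1, Casp4 and Il1b). It had 15.4 and 20.4 CPM in WT, 5.77 and 4.50 in Cis KO, and 84.7 and 64.5 in Cis Stat6 KO, with no overlap between any genotypes. Its log2 difference was 3.86 ± 0.28 (edgeR adjusted p = 0.00937) in Cis Stat6 KO against Cis KO, and -1.80 ± 0.26 (edgeR adjusted p = 0.0707) in Cis KO against WT. Without Cis Stat6 KO replicate 1 or 2 the former did not pass (edgeR adjusted p = 0.0579 and 0.074). In Cis Stat6 KO against WT, edgeR called 0 of the 18, with 1 at an unadjusted p under 0.05 (Il1b, log2 difference 2.06 ± 0.26, edgeR adjusted p = 0.069), and DESeq2 and limma-voom each called that gene.

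Casp1 had 75.6 and 80.8 CPM in WT, 57.5 and 46.6 in Cis KO, and 78.7 and 84.9 in Cis Stat6 KO. Its log2 difference in Cis KO against WT was -0.59 ± 0.19 (edgeR adjusted p = 0.417), although the groups did not overlap. Pycard, the gene of ASC, went the other way, with 31.6 and 29.2 CPM in WT and 36.7 and 114 in Cis KO. Its log2 difference there was 1.31 ± 0.49 (edgeR adjusted p = 0.437), with Cis KO replicate 2 far above replicate 1. In that comparison 13 of the 18 genes were below 0. The median of the 18 genes was -0.24 in Cis KO against WT, 0.32 in Cis Stat6 KO against Cis KO and 0.07 in Cis Stat6 KO against WT.

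Among 20 genes of cytosolic DNA sensing through cGAS and STING, edgeR called 0 in each comparison, with 7, 11 and 0 at an unadjusted p under 0.05. DESeq2 called 2 (both lower), 5 (3 higher and 2 lower) and 0, and limma-voom called 0 in each. The log2 difference was below 0 in 8, 9 and 9 of the 20. Of those with an unadjusted p under 0.05 in Cis KO against WT, Tbk1, Ikbke and Nlrc3 were lower in Cis KO. Irf3, Rnaseh2a, Rnaseh2c and Ddx41 were higher (log2 differences 0.86, 0.92, 1.20 and 0.71), each with Cis KO replicate 2 highest. Ikbke, a kinase that can act beside TBK1 on IRF3, had 39.7 and 30.0 CPM in WT, 8.75 and 7.99 in Cis KO, and 21.4 and 31.4 in Cis Stat6 KO. Both Cis KO libraries were lowest, with a log2 difference from WT of -2.06 ± 0.28 (edgeR adjusted p = 0.0624). Nlrc3, described as a restraint on STING signalling, had 7.54 and 5.92 CPM in WT, 2.50 and 1.23 in Cis KO, and 9.52 and 15.1 in Cis Stat6 KO. Its log2 difference in Cis Stat6 KO against Cis KO was 2.71 ± 0.47 (edgeR adjusted p = 0.0905). The medians of the list were 0.12, 0.08 and 0.06 in the 3 comparisons.

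Of 19 tested genes for interferon receptors, JAK-STAT signalling and IRF factors, edgeR called 0 in each comparison, with 2, 5 and 3 at an unadjusted p under 0.05. DESeq2 called 0, 2 and 0, and limma-voom called 0 in each. Irf1, an interferon-responsive transcription factor, had 78.8 and 74.6 CPM in WT, 56.8 and 50.3 in Cis KO, and 60.4 and 52.8 in Cis Stat6 KO, with a log2 difference in Cis KO against WT of -0.52 ± 0.18 (edgeR adjusted p = 0.433). Ifngr2, a chain of the interferon gamma receptor, had a log2 difference of 0.90 ± 0.23 in Cis Stat6 KO against Cis KO (edgeR adjusted p = 0.165).

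Interferon-stimulated genes outside the cluster gave a comparison with the family's own inducible members. Of 40 such genes edgeR called 0 in each comparison, with 10, 13 and 1 at an unadjusted p under 0.05; DESeq2 called 3, 8 and 1, and limma-voom called 0 in each. Their log2 difference was below 0 in 31 of 40 in Cis KO against WT, with a median of -0.68, and in 7 of 40 in Cis Stat6 KO against Cis KO, with a median of 0.70. Without Cis KO replicate 2 these medians were -0.71 and 0.99. Cis Stat6 KO against WT had a median of 0.11. Gbp3, a guanylate-binding protein gene, had 22.8 and 20.4 CPM in WT, 8.50 and 6.39 in Cis KO, and 24.2 and 21.8 in Cis Stat6 KO, and its Cis KO libraries were lowest. Its log2 difference was -1.53 ± 0.24 in Cis KO against WT (edgeR adjusted p = 0.0939) and 1.63 ± 0.24 in Cis Stat6 KO against Cis KO (edgeR adjusted p = 0.0672). Slfn5, a Schlafen family gene, had 13.5 and 8.14 CPM in WT, 3.55 and 1.30 in Cis KO, and 21.3 and 12.4 in Cis Stat6 KO.

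The labels and the makeup of the libraries were checked beside these results. Cish had 46.2 and 56.2 CPM in WT and between 1.72 and 5.04 in the 4 knockout libraries. Even so, edgeR did not call Cish in Cis KO or Cis Stat6 KO against WT (adjusted p = 0.0624 and 0.0767). Genes that were not called can therefore still differ. Stat6 had 25.5 and 31.6 CPM in Cis Stat6 KO and between 221 and 264 in the other 4. It was called in Cis Stat6 KO against Cis KO and against WT (edgeR adjusted p = 0.0061 and 0.00988). Libraries held 50762354 to 65937118 counts. Cis KO replicate 2 stood apart, with 15855 genes detected against 19641 to 20431 in the others and 3.29% of counts in haemoglobin genes against at most 0.0366%. All 10 alveolar macrophage markers were detected, and their summed level was 12593 to 38549 CPM, with 13832 and 21169 in WT, 17367 and 12593 in Cis KO, and 29357 and 38549 in Cis Stat6 KO. Summed neutrophil markers (8 of 8 tested) were 33.7 to 37.7 CPM in WT and Cis KO replicate 1, 477 in Cis KO replicate 2, and 107 and 202 in Cis Stat6 KO. Summed B cell markers (6 of 7 tested) were 107 CPM in Cis KO replicate 2 and at most 16.3 in the others. Their part in the levels of Aim2, Ifi203 and Ifi209, whose Cis KO replicates differed, was not tested. In RNA from a mixture of cells, fewer cells of a type and less RNA per cell cannot be told apart. Ifi202b was 4.72 CPM in Cis KO replicate 1 and 4.93 in replicate 2, and the part of cell makeup in its level was not tested either.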

How the data were processed

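RNA of 6 BALF libraries was measured by RNA sequencing. The authors deposited raw read counts and FPKM values (counts per gene length and library total) per gene, per the file headers. The build is mm10, per the submitters' processing notes, while the sources used here name no aligner, counter, read length or strand setting. Counts of genes that overlap on opposite strands, such as Aim2 and Cadm3, are therefore uncertain. For Aim2 the transcripts shared little, since 0.742% of its windows of 50 bases and 0% at 100 bases occurred in another gene on either strand. The replicates of each genotype differed by more than sampling noise (chi-square per degree of freedom 95.4, 547 and 315 in WT, Cis KO and Cis Stat6 KO).

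All 6 libraries entered 1 fit in edgeR 4.0.16 (R 4.3.3), with genotype as the factor, TMM scaling (factors 0.863 to 1.077), filterByExpr, the two-sided quasi-likelihood F test and Benjamini-Hochberg adjustment. The test had 3 residual degrees of freedom and a biological coefficient of variation of 50%. The SE of a log2 difference is its absolute value divided by the square root of the F statistic, since edgeR reports none. FPKM was used for levels between genes and in alternatives with limma 3.58.1 on log2(FPKM + 1) or log2(FPKM + 0.1). DESeq2 1.42.0, limma-voom, other scalings, filters, the replicate block and each library left out were also tried. A gene is named if it is a member, was called in a list (up to 6, smallest p first) or, where a list had none called, was among the 2 with the smallest p. Some of these are summarised by counts alone. Pycard, Tbk1, Irf3, Rnaseh2a, Rnaseh2c and Ddx41 are named besides, to give both directions of their lists. Members and lists were chosen with earlier results of these data known.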

Additional observations from a re-analysis of the deposited data

How the results depend on the processing

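The log2 difference of Ifi202b kept its direction in all 17 alternatives, from -2.23 to -1.85 in Cis KO against WT and from 2.26 to 2.77 in Cis Stat6 KO against Cis KO. Its edgeR adjusted p was 0.0352 and 0.0169, and it stayed under 0.05 in 8 and 13 of the 17. Over those alternatives the adjusted p ran from 9.13e-13 to 0.276 and from 5.02e-20 to 0.144. Both lowest values came from DESeq2. In Cis Stat6 KO against WT it ran from 0.244 to 1.0, under 0.05 in 0 of 17. Of 408 alternative log2 differences of the members, 402 moved by less than the spread between replicates. With 2 libraries per group, leaving 1 out can rarely move a value by more, so the count says little about those alternatives. Ifi203 in Cis KO against WT went from -0.90 to -1.58 without Cis KO replicate 1 and was counted among the 402. Of 389 alternative values of the list genes named for a call or a smallest p, 334 kept their side of the threshold. Another 51 passed it newly, 4 no longer passed it (Il1b) and 0 reversed.

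Members called in Cis KO against WT fell from 1 to 0 with limma-voom, library size only, only the groups compared and log2(FPKM + 1) with every gene above 0. In Cis Stat6 KO against Cis KO they fell from 1 to 0 with only the groups compared and with log2(FPKM + 1) above 0. Leaving out 1 library gave 0 to 4 and 0 to 5. The 4 and 5 came without Cis KO replicate 1, which leaves a lone sample assumed to vary like the other groups, and added Aim2, Ifi203 and Ifi209 in both, and Ifi204 in the second. Without that replicate, Ifi209 had log2 differences of -10.34 and 10.46, fitted against a library at 0 counts.

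All genes called (46, 60 and 22 in Cis KO against WT, Cis Stat6 KO against Cis KO and Cis Stat6 KO against WT) were 522, 1544 and 320 with DESeq2, 1021, 1840 and 385 with no filter on low counts, and 6, 5 and 277 with only the groups compared. Scaling by library size only gave 26 and 29 in the comparisons with Cis KO, moved the median log2 difference of all genes from -0.05 to -0.15 in Cis KO against WT, and put all 8 members tested below 0 there, against 6 with TMM scaling and 4 without Cis KO replicate 2. With log2(FPKM + 1) at 0.5 FPKM or more they were 74, 191 and 52. With log2(FPKM + 1) above 0 they were 2, 2 and 1. With log2(FPKM + 0.1) they were 99 and 35 in the comparisons with Cis Stat6 KO. Higher and lower calls were 20 and 26, 40 and 20, and 11 and 11, against 220 and 302, 771 and 773, and 196 and 124 with DESeq2 and its size factors. Leaving out 1 library gave 3 to 5349, 4 to 5999 and 0 to 350. The cause of these changes was not tested.

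Same-numbered deviations of the genotypes correlated at -0.032, -0.065 and 0.013, which shows no pairing by replicate number. They cannot exclude one, since each genotype gave a single difference and Cis KO replicate 2 stood apart. With the replicate block 24, 28 and 12 genes were called, and members called were 0 in Cis KO against WT (Ifi202b adjusted p = 0.0758). Depth limits only Ifi213 and the scarce family genes, while the Cis KO replicates of Ifi209 differed by more than counting error.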

Other observations

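Ifi202b, Ifi203 and Ifi209 had the widest range of log2 CPM over the 6 libraries, and the genes most like each were sought among 9803 tested genes with a mean of at least 5 CPM. The correlations are descriptions over 6 libraries that share 3 genotypes and carry no test. Nearest to Ifi202b was Aak1, a kinase of clathrin-coated vesicles (Pearson r = 0.998), with 47.3 and 44.0 CPM in WT, 25.9 and 25.7 in Cis KO, and 57.0 and 49.4 in Cis Stat6 KO. Pnp, a purine nucleoside phosphorylase (r = 0.996), had 189 and 182 CPM in WT, 95.8 and 101 in Cis KO, and 246 and 223 in Cis Stat6 KO. Rbm15, an RNA-binding protein gene (r = 0.996), ran from 10.5 to 15.3 CPM. In all, 97 genes had r above 0.95 with Ifi202b.

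Ifi203 was most like Scyl2 (r = 0.999), Rbm33 (0.997) and Cdkn2aip (0.997), and 505 genes exceeded 0.95. Scyl2 had 69.5 CPM in Cis KO replicate 1 and 42.0 in replicate 2. Ifi209 was most like Mak, Cdc73 and Jmjd1c, with 734 genes above 0.95. Mak had 15.4 CPM in Cis KO replicate 2 and 31.5 to 34.6 in the other 5 libraries. These genes were picked for their likeness, so their pattern is that of the member by choice.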
